A study of Mus musculus with 24 samples.

Results

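The 34 mouse genes described here encode the enzymes and carriers of fatty acid oxidation, as listed by symbol for this report. All 34 were found among the 55416 gene IDs of the count table and passed the filter on low values, which 17430 genes passed. By textbook location 22 of them act in mitochondria, 9 in peroxisomes, and 3 (Crat, Eci2 and Acad11) in both. RNA was sequenced from 24 kidneys of PolgD257A mice and their Polg+/+ littermates, 6 per group. The groups were PolgD257A after ischemia reperfusion surgery (B-IRI in the labels), Polg+/+ after B-IRI, sham-operated PolgD257A and sham-operated Polg+/+. PolgD257A changes the proofreading domain of the polymerase that copies mitochondrial DNA, in every cell that carries it, and is known for raising mutations in mitochondrial DNA. The sources used here do not give sex, age, zygosity or the interval from surgery to sampling. The libraries are labelled biological replicates.

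Fatty acids are first coupled to coenzyme A by acyl-CoA synthetases. Long chains then enter mitochondria as carnitine esters, and each turn of the mitochondrial cycle runs through an acyl-CoA dehydrogenase, a hydratase, a hydroxyacyl-CoA dehydrogenase and a thiolase. Electrons leave the dehydrogenases through the electron transfer flavoprotein. Peroxisomes shorten very long, branched and dicarboxylic chains, starting with an oxidase that makes hydrogen peroxide, and export the products as carnitine esters. The proximal tubule is rich in both organelles and is known for drawing most of its energy from this pathway.

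Depth ran between 16689284 and 26341004 reads a library. Polg had 1091 to 1232 normalized counts in B-IRI PolgD257A, 1043 to 1147 in B-IRI Polg+/+, 996.7 to 1134 in sham PolgD257A and 1031 to 1093 in sham Polg+/+ kidneys, and a codon change need not alter this level. Havcr1, the tubular injury marker KIM-1, had 25923 to 36062 normalized counts in B-IRI PolgD257A and 5441 to 24888 in B-IRI Polg+/+ kidneys, against 143 to 198 in sham PolgD257A and 112 to 180.1 in sham Polg+/+ kidneys. All 16 proximal tubule markers were detected in every group. One library stands apart: replicate 1 of B-IRI Polg+/+ was the highest of its group in 32 of the 34 genes and had its lowest Havcr1 count. Counts of called genes and medians by organelle that rest on it are given with and without it, and calls lost or gained without it are named. The median changes of all 34 genes and the count of their signs are given only with it.

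Promoters are printed for related genes that lie near each other and whose changes are set side by side in the results, a choice made after their values were seen, with the 250 bases before the RefSeq start on GRCm38.p6, 5′ to 3′ on the gene's strand. Hadha and Hadhb, the subunits of the mitochondrial trifunctional protein, start head to head on chromosome 5, with GENCODE starts 86 bp and RefSeq starts 273 bp apart. The stretch before Hadhb (chr5:30155003-30155252, plus strand) is printed for this pair. Its capitals mark the 85 bases between the GENCODE starts. Acsm2 (chr7:119554090-119554339, plus strand) and Acsm3 (chr7:119760673-119760922, plus strand) belong to a run of medium-chain synthetase genes, with Acsm1 between them, and Eci3 (chr13:34963810-34964059, minus strand) and Eci2 (chr13:34994145-34994394, minus strand) lie 13.9 kb apart. In these, capitals mark matches on either strand to the 3 core promoter motifs counted after the sequences.
Hadhb: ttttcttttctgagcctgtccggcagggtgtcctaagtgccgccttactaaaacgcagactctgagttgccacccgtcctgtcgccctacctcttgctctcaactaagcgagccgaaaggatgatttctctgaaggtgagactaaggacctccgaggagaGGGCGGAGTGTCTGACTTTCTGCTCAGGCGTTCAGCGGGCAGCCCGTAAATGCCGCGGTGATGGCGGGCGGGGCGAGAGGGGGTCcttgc
Acsm2: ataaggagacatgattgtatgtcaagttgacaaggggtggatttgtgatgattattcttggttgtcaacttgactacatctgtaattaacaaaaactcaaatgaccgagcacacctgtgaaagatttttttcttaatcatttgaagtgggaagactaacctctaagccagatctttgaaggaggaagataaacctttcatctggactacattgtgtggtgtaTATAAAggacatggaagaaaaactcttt
Acsm3: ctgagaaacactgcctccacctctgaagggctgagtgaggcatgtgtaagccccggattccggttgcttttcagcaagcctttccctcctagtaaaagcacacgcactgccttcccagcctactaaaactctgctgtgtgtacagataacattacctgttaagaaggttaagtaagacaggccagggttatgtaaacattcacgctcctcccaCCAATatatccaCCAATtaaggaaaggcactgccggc
Eci3: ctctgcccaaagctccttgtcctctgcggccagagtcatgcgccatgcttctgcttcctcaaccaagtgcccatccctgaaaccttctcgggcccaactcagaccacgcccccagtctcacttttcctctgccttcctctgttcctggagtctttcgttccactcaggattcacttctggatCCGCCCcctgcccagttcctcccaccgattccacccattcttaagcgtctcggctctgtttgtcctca
Eci2: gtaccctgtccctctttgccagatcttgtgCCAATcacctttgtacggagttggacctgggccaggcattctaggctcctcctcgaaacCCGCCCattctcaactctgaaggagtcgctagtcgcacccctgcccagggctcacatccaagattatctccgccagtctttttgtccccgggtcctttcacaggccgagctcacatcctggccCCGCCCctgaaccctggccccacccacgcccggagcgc

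Of the 34 genes, 29 have a promoter in the RefSeq table. Among them only Acsm2 holds TATAAA, 28 bases before its start, a match found in 12.4% of 32817 promoters and 11.6% of those of coding genes. The CCAAT box, searched as CCAAT, is in 15 of the 29 (33.8% of all promoters, 35.3% of coding ones). The GC box, searched as GGGCGG, is in 18 (32.7% of all, 42.6% of coding ones). All 34 genes are coding. A gene with several promoters counts if any of them matches, while the shares are per promoter, so the 2 are not fully alike. Both strands were searched. A relaxed form of the repeat that PPAR and RXR bind, with 2 copies of AGGNCA that have 1 base between them, is in 0 of the 29. It is in 0.338% of all promoters and 0.320% of coding ones. The single site TCAAGGTCA, bound by estrogen-related receptors, is also in 0 of the 29, against 0.387% of all and 0.320% of coding promoters. These are matches of letters in short windows and say nothing of binding.

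After B-IRI most of the pathway was lower than in sham kidneys of the same genotype. In PolgD257A kidneys 26 of the 34 genes fell and 1 rose, where 30.3% of all genes tested fell and 30.2% rose (60.4% in either direction). Changes are limma estimates on the log2 scale, ± the standard error, and p-values are adjusted over all genes. The median log2 change of the 34 was -0.57, against 0.00 over all genes. In Polg+/+ kidneys 19 fell and 2 rose, where 19.8% of all genes fell and 21.4% rose (41.2% in either direction), with a median of -0.28 against -0.01. In 19 of the genes all 6 B-IRI PolgD257A libraries lay below all 6 sham PolgD257A libraries (17.5% of all genes), and in 14 genes the same held in Polg+/+ (8.7% of all genes). Without the B-IRI Polg+/+ replicate that stands apart, 22 genes fell and 2 rose in Polg+/+.

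**Figure D1:**
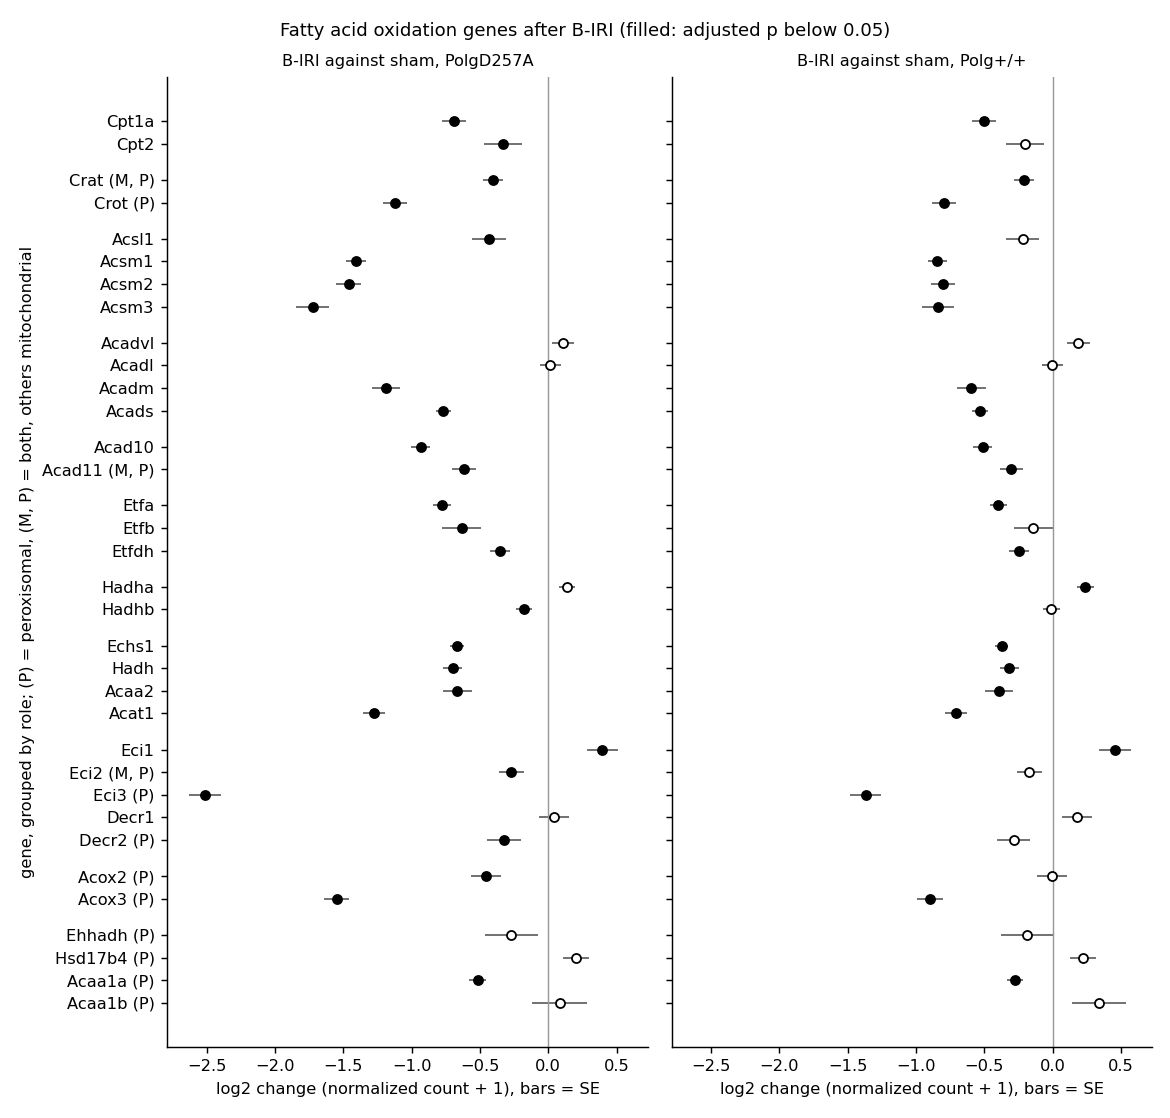
Log2 change (x axis, on normalized count + 1) of each of the 34 genes (rows, by role) in B-IRI against sham kidneys, in PolgD257A (left) and Polg+/+ (right), 6 libraries a group. Points are limma estimates and bars their standard errors, and filled points passed an adjusted p of 0.05: 27 on the left and 21 on the right, with Eci3 lowest in both panels and Eci1 to the right of 0 in both.

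The largest mitochondrial falls were those of the medium-chain acyl-CoA synthetases, enzymes of the matrix that activate medium-chain fatty acids and also carboxylic acids bound for glycine conjugation. Acsm3 (chr7:119760923-119787513 in GENCODE M21 on GRCm38) had 3878, 5662 and 6872 normalized counts (lowest, median and highest of 6 libraries, as in the values that follow) in B-IRI PolgD257A and 7637, 8789 and 11299.8 in B-IRI Polg+/+ kidneys, against 15422, 18244 and 20148 in sham PolgD257A and 13166, 17123 and 19537 in sham Polg+/+ kidneys. The B-IRI libraries of each genotype lay below all of its sham libraries and the B-IRI groups did not overlap either. Its log2 change after B-IRI was -1.72 ± 0.12 (adjusted p = 3.1e-12) in PolgD257A and -0.84 ± 0.12 (adjusted p = 3.5e-06) in Polg+/+.

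Acsm2 was the member with the highest level per kilobase of exon, at 15478 ± 1532 normalized counts per kilobase in sham Polg+/+ kidneys (SD, n = 6). It had 35372, 42119.8 and 46216 normalized counts in B-IRI PolgD257A and 56557, 63889 and 76610.2 in B-IRI Polg+/+ kidneys, against 104897, 113023 and 123151 in sham PolgD257A and 97523, 117198 and 128553 in sham Polg+/+ kidneys. The groups were again fully apart except for the overlapping shams. The change was -1.46 ± 0.09 (adjusted p = 3.9e-13) in PolgD257A and -0.80 ± 0.09 (adjusted p = 9.9e-08) in Polg+/+. Acsm1, the gene between Acsm2 and Acsm3, fell by 1.41 ± 0.07 (adjusted p = 1.1e-14) in PolgD257A and 0.84 ± 0.07 (adjusted p = 7.9e-10) in Polg+/+. Part of the Acsm3 count is uncertain, since 39.7% of its exon length overlaps Eri2 on the opposite strand and whether the counting used strand is not stated.

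Acsl1, the synthetase for long chains, moved less. It had 2311, 3312 and 4389.9 normalized counts in B-IRI PolgD257A and 3219.97, 3781 and 5219 in B-IRI Polg+/+ kidneys, against 3821, 4504 and 5116 in sham PolgD257A and 4045, 4314 and 5227 in sham Polg+/+ kidneys, and the groups overlapped. It fell in PolgD257A (-0.43 ± 0.12, adjusted p = 0.0037) and had -0.22 ± 0.12 (adjusted p = 0.16) in Polg+/+, where the call came only without the B-IRI Polg+/+ replicate 1 (-0.31, adjusted p = 0.039).

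Of the carnitine acyltransferases 4 of 4 fell in PolgD257A and 3 of 4 in Polg+/+, where 30.3% and 19.8% of all genes fell. Cpt1a, the outer membrane transferase and the controlled entry step for long chains, had 5758, 7443 and 8981 normalized counts in B-IRI PolgD257A and 7758, 8151 and 9159 in B-IRI Polg+/+ kidneys, against 10898, 11484 and 13629 in sham PolgD257A and 11354, 11842 and 12118 in sham Polg+/+ kidneys. Every B-IRI library was below every sham library of its genotype (-0.69 ± 0.09, adjusted p = 1.7e-07 in PolgD257A and -0.50 ± 0.09, adjusted p = 5.0e-05 in Polg+/+). Cpt2, its partner on the inner membrane, changed by -0.33 ± 0.14 (adjusted p = 0.041) in PolgD257A, a call lost under 12 of 34 alternatives, 6 of which leave out 1 library (B-IRI PolgD257A replicate 1, 2 or 3, or sham PolgD257A replicate 2, 4 or 6, adjusted p up to 0.13), and by -0.20 ± 0.14 (adjusted p = 0.26) in Polg+/+. Its B-IRI and sham libraries overlapped in both genotypes. Crot, which makes carnitine esters of chains shortened in peroxisomes, had 4894, 6199 and 6858 normalized counts in B-IRI PolgD257A and 6472, 7287 and 9859 in B-IRI Polg+/+ kidneys, against 12157, 12850.4 and 14324 in sham PolgD257A and 11749, 12969.6 and 13787 in sham Polg+/+ kidneys. B-IRI and sham did not overlap in either genotype (-1.12 ± 0.09, adjusted p = 2.5e-11 in PolgD257A and -0.79 ± 0.09, adjusted p = 7.2e-08 in Polg+/+). Crat, the short-chain transferase of both organelles, fell by 0.40 ± 0.08 (adjusted p = 5.1e-05) in PolgD257A and 0.21 ± 0.08 (adjusted p = 0.028) in Polg+/+, where the call was lost without B-IRI Polg+/+ replicate 2 or 6 or sham Polg+/+ replicate 3 (adjusted p up to 0.08).

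Among the mitochondrial acyl-CoA dehydrogenases, the enzymes for shorter chains fell and those for longer chains had no call. Acadm, the medium-chain enzyme (chr3:153922357-153944632), had 9864, 12673 and 15198 normalized counts in B-IRI PolgD257A and 15697, 17843 and 24084 in B-IRI Polg+/+ kidneys, against 24625, 28301 and 32969 in sham PolgD257A and 24891, 26889 and 31222 in sham Polg+/+ kidneys. No B-IRI library reached its sham range, and the B-IRI groups were apart. The change was -1.19 ± 0.10 (adjusted p = 2.8e-10) in PolgD257A and -0.60 ± 0.10 (adjusted p = 5.7e-05) in Polg+/+. Acads, the short-chain enzyme, fell by 0.77 ± 0.06 (adjusted p = 1.4e-11) in PolgD257A and 0.53 ± 0.06 (adjusted p = 5.7e-08) in Polg+/+, with no overlap in either.

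Acadl, the long-chain enzyme (chr1:66830839-66863277), had 7460.3, 8781 and 9652 normalized counts in B-IRI PolgD257A and 7796, 8547 and 10961 in B-IRI Polg+/+ kidneys, against 7666, 8536 and 9801 in sham PolgD257A and 8222, 8622 and 9715 in sham Polg+/+ kidneys. All 4 groups overlapped (0.01 ± 0.08, adjusted p = 0.89 in PolgD257A and 0.00 ± 0.08, adjusted p = 0.97 in Polg+/+). Acadvl, the very-long-chain enzyme of the inner membrane, had 0.11 ± 0.08 (adjusted p = 0.26) in PolgD257A and 0.19 ± 0.08 (adjusted p = 0.069) in Polg+/+, and 42.9% of its exon length overlaps Dvl2 on the opposite strand. With quantile normalization both were called higher in PolgD257A (Acadl 0.24, adjusted p = 0.0033, and Acadvl 0.25, adjusted p = 0.0078), and Acadvl in Polg+/+ was called higher with quantile normalization, with only the libraries compared, and without B-IRI Polg+/+ replicate 2 or 6. Within each library the ratio of Acadm to Acadl counts was 1.15 to 1.87 in B-IRI PolgD257A and 1.89 to 2.35 in B-IRI Polg+/+ kidneys, against 3.03 to 3.44 in sham PolgD257A and 2.896 to 3.23 in sham Polg+/+ kidneys. The 3 ranges of B-IRI PolgD257A, B-IRI Polg+/+ and either sham group did not overlap. Such ratios of counts are not adjusted for gene length, so they compare libraries and not the levels of the 2 genes. Acad10, a less studied member of the family, fell by 0.93 ± 0.07 (adjusted p = 1.2e-11) in PolgD257A and 0.51 ± 0.07 (adjusted p = 1.9e-06) in Polg+/+. Of the 75-base windows of Acad10 transcripts 14.2% also occur in Acad12, so reads could be split between them. Acad11, which acts on hydroxylated chains, fell by 0.62 ± 0.09 (adjusted p = 1.0e-06) in PolgD257A and 0.30 ± 0.09 (adjusted p = 0.0074) in Polg+/+.

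**Figure D2:**
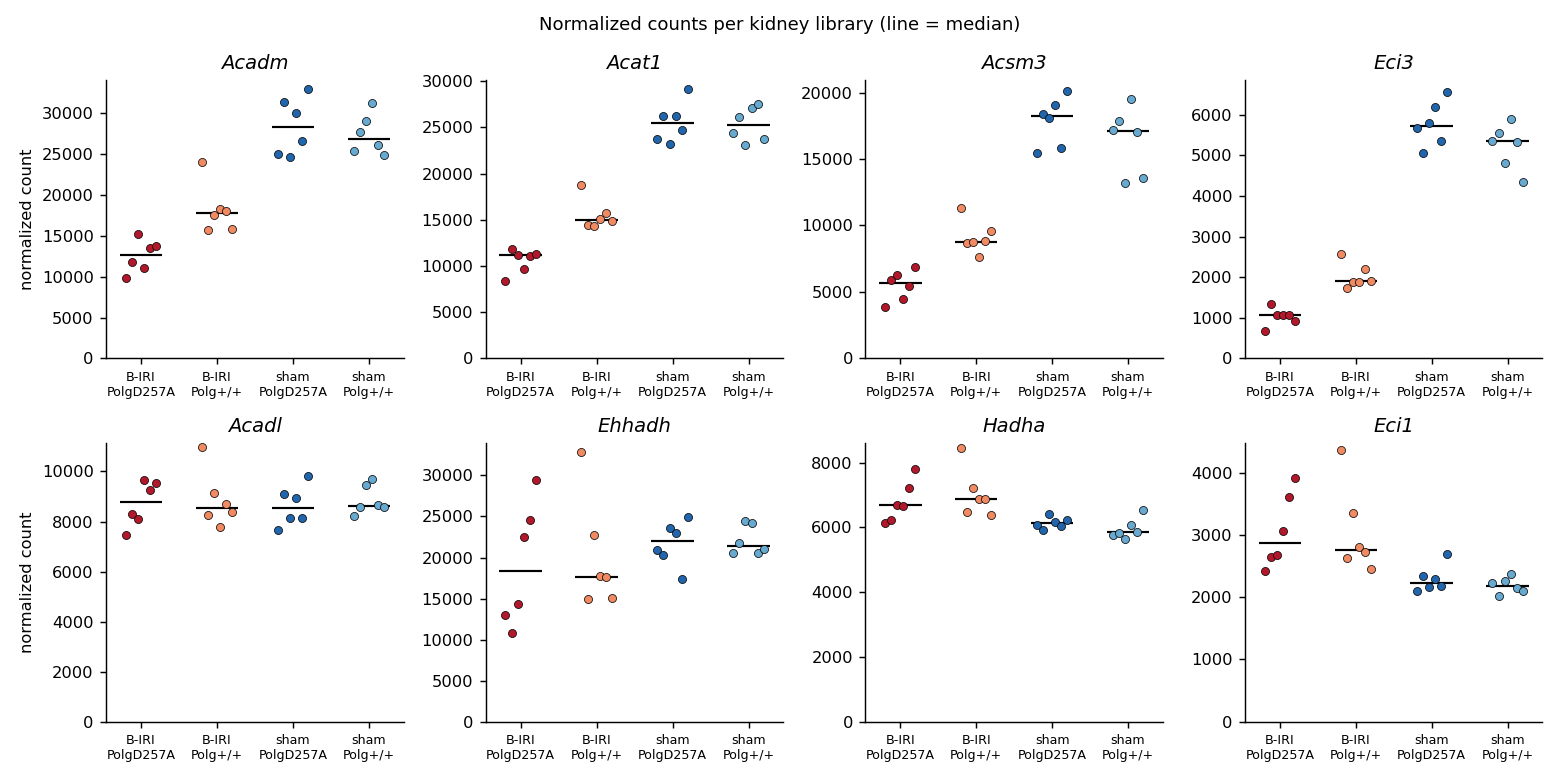
Normalized counts (y axes, linear from 0) of 8 of the genes in the 4 groups of 6 kidney libraries (points), with group medians as lines. In the upper row (Acadm, Acat1, Acsm3 and Eci3) every B-IRI library lies below every sham library of its genotype, and in the lower row (Acadl, Ehhadh, Hadha and Eci1) B-IRI PolgD257A and sham PolgD257A overlap.

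The electron transfer chain that serves these dehydrogenases followed the same direction in PolgD257A. Etfa, the alpha subunit of the electron transfer flavoprotein, had 5600.2, 6317 and 7014 normalized counts in B-IRI PolgD257A and 7519, 8214 and 10265 in B-IRI Polg+/+ kidneys, against 9722, 10902 and 11993 in sham PolgD257A and 10747, 10919 and 11580.2 in sham Polg+/+ kidneys. Neither genotype showed overlap between B-IRI and sham (-0.78 ± 0.07, adjusted p = 9.8e-11 in PolgD257A and -0.40 ± 0.07, adjusted p = 2.3e-05 in Polg+/+). Etfdh, which passes the electrons to ubiquinone, fell by 0.36 ± 0.07 (adjusted p = 1.7e-04) in PolgD257A and 0.25 ± 0.07 (adjusted p = 0.0083) in Polg+/+. Etfb, the beta subunit, fell in PolgD257A (-0.63 ± 0.14, adjusted p = 4.1e-04) and had -0.14 ± 0.14 (adjusted p = 0.45) in Polg+/+. Its count is uncertain because 53% of its exon length is shared on the same strand with Gm45233.

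The matrix enzymes of the later steps fell in both genotypes, 4 of 4 in each. Of all genes 30.3% fell in PolgD257A and 19.8% in Polg+/+. Acat1, the thiolase that splits and makes acetoacetyl-CoA, had 8425, 11156 and 11857 normalized counts in B-IRI PolgD257A and 14268, 14961 and 18779 in B-IRI Polg+/+ kidneys, against 23225, 25458 and 29111 in sham PolgD257A and 23098, 25212 and 27573 in sham Polg+/+ kidneys. All B-IRI libraries were below the sham libraries and the B-IRI groups did not overlap (-1.27 ± 0.08, adjusted p = 5.5e-13 in PolgD257A and -0.71 ± 0.08, adjusted p = 1.1e-07 in Polg+/+). The short-chain hydratase Echs1 fell by 0.66 ± 0.05 (adjusted p = 1.7e-11) in PolgD257A and 0.37 ± 0.05 (adjusted p = 1.6e-06) in Polg+/+. Hadh, the hydroxyacyl-CoA dehydrogenase for medium and short chains, fell by 0.70 ± 0.07 (adjusted p = 2.7e-09) in PolgD257A and 0.32 ± 0.07 (adjusted p = 6.8e-04) in Polg+/+. The ketoacyl-CoA thiolase Acaa2 had -0.67 ± 0.10 (adjusted p = 4.5e-06) in PolgD257A and -0.39 ± 0.10 (adjusted p = 0.0038) in Polg+/+, both called lower.

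The trifunctional protein carries out these later steps for long chains, and both of its subunits had estimates nearer 0 than those 4 genes. Hadha, its alpha subunit, had 6130.02, 6685 and 7812 normalized counts in B-IRI PolgD257A and 6376, 6877 and 8467 in B-IRI Polg+/+ kidneys, against 5938, 6129.5 and 6429 in sham PolgD257A and 5655, 5849 and 6530.4 in sham Polg+/+ kidneys. B-IRI and sham overlapped in both genotypes. It rose in Polg+/+ (0.24 ± 0.06, adjusted p = 0.0028) and had 0.14 ± 0.06 (adjusted p = 0.056) in PolgD257A, where 6 of 34 alternatives called it higher, among them the fits without B-IRI PolgD257A replicate 1 (adjusted p = 0.027), without B-IRI PolgD257A replicate 2 (adjusted p = 0.031) and without B-IRI Polg+/+ replicate 1 (adjusted p = 0.026). The interaction for Hadha did not pass (-0.10 ± 0.09, adjusted p = 0.47), so the response was not shown to differ by genotype.

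Hadhb, the beta subunit, whose upstream stretch is printed above, had 3679, 4122 and 4652 normalized counts in B-IRI PolgD257A and 4038, 4544 and 5356 in B-IRI Polg+/+ kidneys, against 4359, 4728 and 4959.7 in sham PolgD257A and 4357, 4521 and 4993 in sham Polg+/+ kidneys. The groups overlapped. It fell in PolgD257A (-0.18 ± 0.06, adjusted p = 0.014), a call lost under quantile normalization (adjusted p = 0.6), and had -0.01 ± 0.06 (adjusted p = 0.92) in Polg+/+. The ratio of Hadha to Hadhb counts was 1.55 to 1.71 in B-IRI PolgD257A and 1.46 to 1.58 in B-IRI Polg+/+ kidneys, against 1.26 to 1.38 in sham PolgD257A and 1.25 to 1.34 in sham Polg+/+ kidneys. B-IRI lay above sham in every library for this ratio, and 51% of the 75-base windows of Hadhb transcripts also occur in the pseudogene Gm13910, so reads could be split between them.

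Enzymes that handle double bonds differed most among themselves. Eci3, a peroxisomal enoyl-CoA isomerase (chr13:34946614-34963810), had 679, 1065 and 1348 normalized counts in B-IRI PolgD257A and 1731, 1898 and 2566 in B-IRI Polg+/+ kidneys, against 5068, 5732 and 6565 in sham PolgD257A and 4330.2, 5340.3 and 5901 in sham Polg+/+ kidneys. The 3 levels of B-IRI PolgD257A, B-IRI Polg+/+ and sham were fully apart. It was 5.71-fold lower in PolgD257A (-2.51 ± 0.11, adjusted p = 2.1e-15) and 2.58-fold lower in Polg+/+ (-1.37 ± 0.11, adjusted p = 9.0e-10), the largest fall among the 34 in both.

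Eci2, its neighbour and close relative in both organelles, had 1877, 2319 and 2706 normalized counts in B-IRI PolgD257A and 2145, 2292 and 3279.95 in B-IRI Polg+/+ kidneys, against 2441, 2727 and 3195 in sham PolgD257A and 2586, 2722 and 2915 in sham Polg+/+ kidneys, with overlap throughout. It fell in PolgD257A (-0.27 ± 0.09, adjusted p = 0.012) and had -0.17 ± 0.09 (adjusted p = 0.14) in Polg+/+, where the fit without B-IRI Polg+/+ replicate 1 called it lower (adjusted p = 0.0095). The ratio of Eci3 to Eci2 counts was 0.344 to 0.718 in B-IRI PolgD257A and 0.745 to 0.957 in B-IRI Polg+/+ kidneys, against 1.78 to 2.33 in sham PolgD257A and 1.58 to 2.14 in sham Polg+/+ kidneys. Per kilobase of exon, which takes account of the 1418 bp of exon of Eci3 and the 5540 bp of Eci2, the ratio of their levels was 1.34 to 2.81 in B-IRI PolgD257A and 2.91 to 3.74 in B-IRI Polg+/+ kidneys, against 6.95 to 9.09 in sham PolgD257A and 6.17 to 8.38 in sham Polg+/+ kidneys. With these lengths Eci3 had the higher level per kilobase in all 24 libraries, by a smaller margin after B-IRI. The lengths merge the exons of all annotated transcripts, whereas coding transcripts gave 1377 windows of 75 bases for Eci3 and 2424 for Eci2. A shorter length for Eci2 would lower these ratios, so which gene had the higher level after B-IRI is not settled. Of transcript sequence, 4.79% of the 75-base windows of Eci3 are shared with Eci2.

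Eci1, the mitochondrial isomerase, was the gene that moved against the rest in both genotypes. It had 2424, 2869 and 3914 normalized counts in B-IRI PolgD257A and 2454, 2764 and 4356 in B-IRI Polg+/+ kidneys, against 2094, 2234 and 2697 in sham PolgD257A and 2012, 2181 and 2376 in sham Polg+/+ kidneys. B-IRI lay fully above sham in Polg+/+, as in 11.5% of all genes, and overlapped it in PolgD257A (0.40 ± 0.11, adjusted p = 0.004 in PolgD257A and 0.46 ± 0.11, adjusted p = 0.0023 in Polg+/+). Decr1, the mitochondrial dienoyl-CoA reductase, had 0.04 ± 0.11 (adjusted p = 0.75) in PolgD257A and 0.18 ± 0.11 (adjusted p = 0.2) in Polg+/+. Decr2, its peroxisomal counterpart, was called lower in PolgD257A (-0.32 ± 0.12, adjusted p = 0.027), a call lost without any 1 of B-IRI PolgD257A replicates 1, 2 and 3 or sham PolgD257A replicate 3 (adjusted p up to 0.085) and by edgeR. In Polg+/+ it had -0.29 ± 0.12 (adjusted p = 0.066). It was called lower there with quantile normalization, with only the libraries compared, and without B-IRI PolgD257A replicate 4 or B-IRI Polg+/+ replicate 1.

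**Figure D3:**
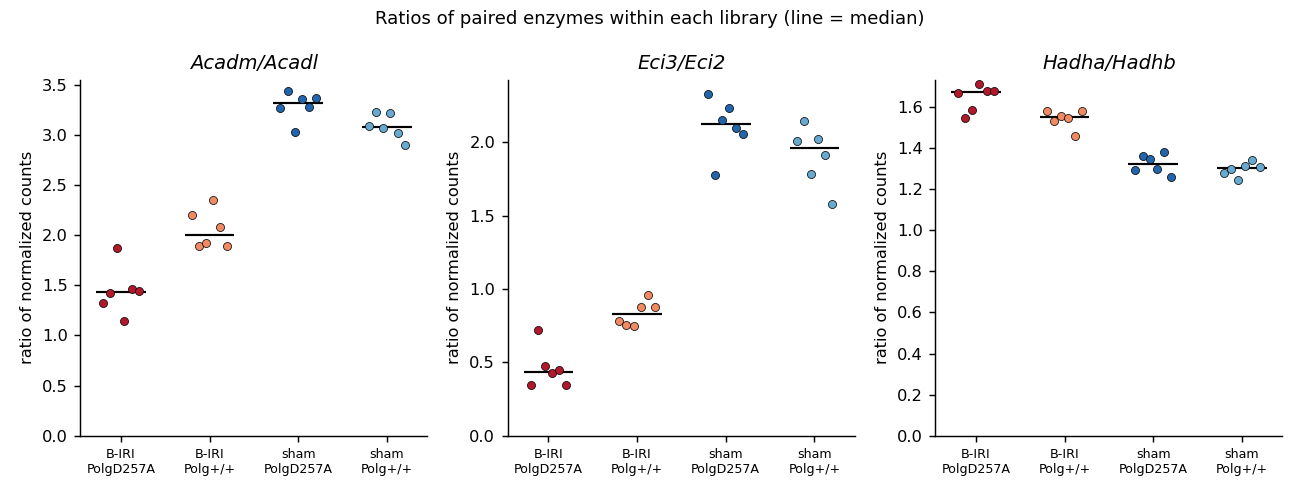
Ratios of normalized counts, not adjusted for gene length (y axes, linear from 0), within each library for Acadm over Acadl, Eci3 over Eci2 and Hadha over Hadhb, in the 4 groups of 6 kidneys, with medians as lines. The median of Acadm over Acadl is 1.43 in B-IRI PolgD257A, 1.9994 in B-IRI Polg+/+, 3.32 in sham PolgD257A and 3.08 in sham Polg+/+ kidneys, and that of Eci3 over Eci2 is 0.436 in B-IRI PolgD257A, 0.829 in B-IRI Polg+/+, 2.12 in sham PolgD257A and 1.96 in sham Polg+/+ kidneys.

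Both peroxisomal oxidases of the list fell in PolgD257A, where 30.3% of all genes fell. Of the 4 later enzymes 3 had no call in either genotype, where 60.4% of all genes had a call in PolgD257A and 41.2% in Polg+/+. So few genes cannot be told apart from these shares. Acox3, an oxidase of branched chains, had 1842, 2219 and 2493 normalized counts in B-IRI PolgD257A and 2918, 3097 and 3521 in B-IRI Polg+/+ kidneys, against 6031, 6187 and 7155 in sham PolgD257A and 4069, 6175 and 6924 in sham Polg+/+ kidneys. Its B-IRI groups lay apart from sham and from each other (-1.55 ± 0.09, adjusted p = 3.2e-13 in PolgD257A and -0.90 ± 0.09, adjusted p = 3.4e-08 in Polg+/+). Acox2, the oxidase of bile acid precursors and branched chains, had 1302, 1793 and 2142 normalized counts in B-IRI PolgD257A and 1955, 2334 and 3220.4 in B-IRI Polg+/+ kidneys, against 2038, 2444 and 2557 in sham PolgD257A and 2092, 2474 and 2656 in sham Polg+/+ kidneys. It fell in PolgD257A with overlap (-0.45 ± 0.11, adjusted p = 8.0e-04) and had -0.01 ± 0.11 (adjusted p = 0.97) in Polg+/+.

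Ehhadh and Hsd17b4 are the multifunctional enzymes that carry out the hydratase and dehydrogenase steps in peroxisomes. Ehhadh had 10835, 18390.5 and 29392 normalized counts in B-IRI PolgD257A and 15004, 17684 and 32838 in B-IRI Polg+/+ kidneys, against 17415, 21979.7 and 24986 in sham PolgD257A and 20514, 21383 and 24388 in sham Polg+/+ kidneys. The B-IRI libraries lay on both sides of the sham range (-0.27 ± 0.19, adjusted p = 0.24 in PolgD257A and -0.18 ± 0.19, adjusted p = 0.47 in Polg+/+), and its coefficient of variation in B-IRI PolgD257A, 38.9%, was the largest of the 34. Hsd17b4 had 0.21 ± 0.10 (adjusted p = 0.064) in PolgD257A and 0.22 ± 0.10 (adjusted p = 0.063) in Polg+/+, and was called higher under 7 of 34 alternatives in PolgD257A and 6 of 34 in Polg+/+. In PolgD257A these include the fits without B-IRI PolgD257A replicate 1, 2 or 3 or B-IRI Polg+/+ replicate 1, and in Polg+/+ those without B-IRI PolgD257A replicate 2 or 6 or B-IRI Polg+/+ replicate 6 (adjusted p = 0.014 in PolgD257A and 0.043 in Polg+/+, each without B-IRI PolgD257A replicate 2).

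The thiolases Acaa1a and Acaa1b end the peroxisomal cycle. Acaa1a fell by 0.52 ± 0.06 (adjusted p = 5.8e-08) in PolgD257A and 0.28 ± 0.06 (adjusted p = 7.8e-04) in Polg+/+, without overlap. Acaa1b had 5096, 8364 and 11886 normalized counts in B-IRI PolgD257A and 6594, 8557 and 16990.3 in B-IRI Polg+/+ kidneys, against 6597, 7317 and 9364 in sham PolgD257A and 6569, 6990.1 and 10133 in sham Polg+/+ kidneys, all overlapping (0.08 ± 0.20, adjusted p = 0.74 in PolgD257A and 0.34 ± 0.20, adjusted p = 0.18 in Polg+/+). The copies are alike enough for reads to be split, with 20.6% of the Acaa1a windows and 28.5% of the Acaa1b windows shared.

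By organelle, 17 of 22 mitochondrial genes fell in PolgD257A with a median log2 change of -0.66, and 6 of 9 peroxisomal genes with a median of -0.45. In Polg+/+ 13 of 22 mitochondrial genes fell (median -0.35) and 4 of 9 peroxisomal genes (median -0.28). Without B-IRI Polg+/+ replicate 1 these Polg+/+ medians were -0.40 and -0.34. The 3 genes of both organelles fell in PolgD257A and 2 of them in Polg+/+. Of all genes 30.3% fell in PolgD257A and 19.8% in Polg+/+. The difference between the organelles was not tested. The 34 genes held 0.862 to 1.19% of all normalized counts in B-IRI PolgD257A and 1.13 to 1.53% in B-IRI Polg+/+ kidneys, against 1.52 to 1.69% in sham PolgD257A and 1.55 to 1.67% in sham Polg+/+ kidneys. Acsm2 alone held 0.179 to 0.225% in B-IRI PolgD257A and 0.271 to 0.358% in B-IRI Polg+/+ kidneys, against 0.464 to 0.528% in sham PolgD257A and 0.45 to 0.561% in sham Polg+/+ kidneys.

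Between the genotypes after B-IRI, 18 of the 34 genes were lower in PolgD257A and 0 were higher, where 15.2% of all genes were lower and 14.3% higher. By edgeR and DESeq2 0 were higher too, and 0 had an unadjusted p under 0.05 with a positive log2 change in the limma fit. The median log2 difference was -0.25, against 0.01 over all genes. In 11 genes all 6 B-IRI PolgD257A libraries were below all 6 B-IRI Polg+/+ libraries (5.94% of all genes), and in 0 genes the reverse held (4.65% of all genes). Without B-IRI Polg+/+ replicate 1 the count of lower genes was 16. The median difference was -0.28 for mitochondrial and -0.23 for peroxisomal genes, and -0.22 and -0.18 without this library. With all libraries, 18 genes were lower. The lower genes were 12 of 22 mitochondrial, 5 of 9 peroxisomal and 1 of the 3 of both organelles.

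The widest gaps were those of Eci3, Acsm3 and Acsm2. Eci3 was 1.99-fold lower in B-IRI PolgD257A than in B-IRI Polg+/+ kidneys (-1.0 ± 0.11, adjusted p = 1.0e-06). Acsm3 had -0.76 ± 0.12 (adjusted p = 3.4e-05), Acsm2 -0.67 ± 0.09 (adjusted p = 5.9e-06) and Acsm1 -0.38 ± 0.07 (adjusted p = 1.8e-04). For Acat1 the log2 difference was -0.55 ± 0.08 (adjusted p = 1.3e-05), for Acadm -0.54 ± 0.10 (adjusted p = 3.1e-04) and for Acox3 -0.53 ± 0.09 (adjusted p = 1.2e-04). None of these 7 overlapped between the B-IRI groups, and the same was true of Acads (-0.28 ± 0.06, adjusted p = 5.7e-04), Etfa (-0.41 ± 0.07, adjusted p = 3.7e-05), Echs1 (-0.30 ± 0.05, adjusted p = 8.0e-05) and Hadh (-0.38 ± 0.07, adjusted p = 2.0e-04).

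Differences with overlapping libraries passed for Etfb (-0.50 ± 0.14, adjusted p = 0.0094), Acox2 (-0.48 ± 0.11, adjusted p = 0.0014), Acad10 (-0.34 ± 0.07, adjusted p = 5.5e-04), Crot (-0.32 ± 0.09, adjusted p = 0.0069) and Acaa1a (-0.23 ± 0.06, adjusted p = 0.0063). Acad11 (-0.29 ± 0.09, adjusted p = 0.015) lost its call when only the libraries compared were fitted and without B-IRI Polg+/+ replicate 1 (adjusted p = 0.053). Acaa2 (-0.28 ± 0.10, adjusted p = 0.044) lost it under 11 of 34 alternatives, among them the fits without B-IRI PolgD257A replicate 1, 3 or 4 and without B-IRI Polg+/+ replicate 1, 3, 4 or 5 (adjusted p up to 0.15). The entry step Cpt1a had -0.18 ± 0.09 (adjusted p = 0.12), with a call without B-IRI PolgD257A replicate 4 or 5. Acadl had -0.02 ± 0.08 (adjusted p = 0.85) and Hadha -0.05 ± 0.06 (adjusted p = 0.56). The authors' deposited table, read here as PolgD257A against Polg+/+ after B-IRI, holds 1401 genes, among them 4.18% of all genes tested here with a negative value, and lists 5 of the 34 genes with a negative shrunken log2 fold change: Eci3 (-0.96, s-value 8.8e-17), Acsm3 (-0.70, s-value 7.6e-10), Acsm2 (-0.65, s-value 7.7e-17), Acat1 (-0.52, s-value 1.6e-11) and Acadm (-0.51, s-value 1.8e-07).

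**Figure D4:**
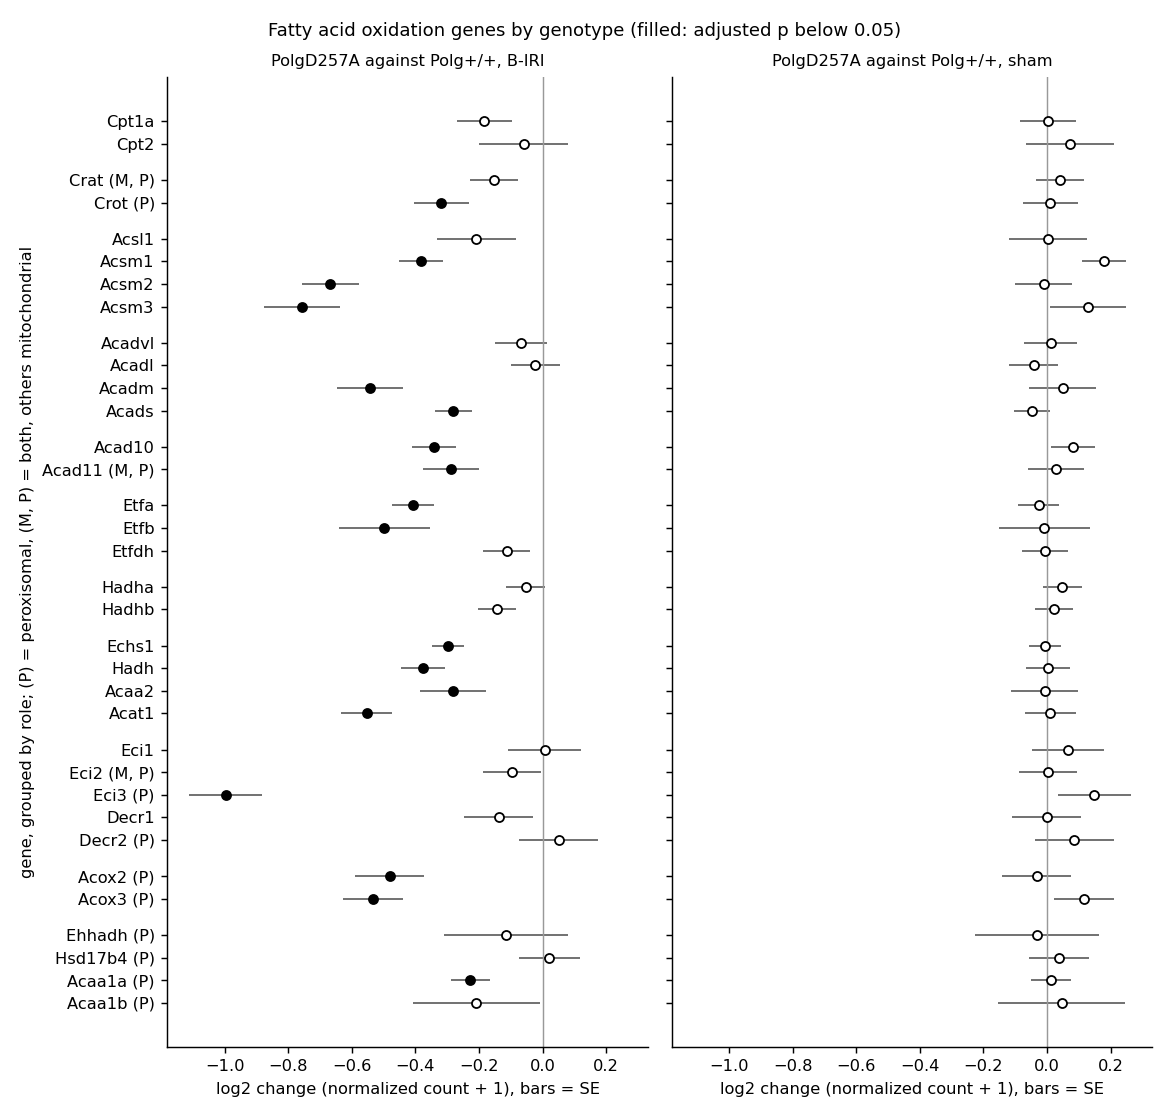
Log2 difference (x axis, on normalized count + 1) of PolgD257A against Polg+/+ for each of the 34 genes (rows, by role) after B-IRI (left) and in sham kidneys (right), 6 libraries a group. Points are limma estimates with standard errors, filled where the adjusted p is below 0.05: 18 points on the left, all below 0, and 0 on the right.

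In sham kidneys 0 of the 34 genes passed the genotype comparison in limma, edgeR or DESeq2, where 0.126% of all genes did in limma, 0.0402% lower and 0.0861% higher. In all 34 genes the sham PolgD257A and sham Polg+/+ libraries overlapped, where 0.252% of all genes lay fully lower and 0.379% fully higher. With each of these tools 1 gene, Acsm1, had an unadjusted p under 0.05. Acsm1 had 4512, 5121 and 5679 normalized counts in sham PolgD257A and 3849, 4492 and 4913 in sham Polg+/+ kidneys (0.18 ± 0.07, adjusted p = 0.5). The median log2 difference of the 34 was 0.01. Eci3 had 0.15 ± 0.11 (adjusted p = 0.84) and Acadm 0.05 ± 0.10 (adjusted p = 0.95), with standard errors that leave small differences undetected.

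The test of the difference between the injury responses, the interaction of surgery and genotype, passed for 12 of the 34 genes, all with a more negative change in PolgD257A, where 9.08% of all genes passed in that direction and 6.87% in the other. Of these, 9 are mitochondrial and 3 peroxisomal. Eci3 had the largest value (-1.14 ± 0.16, adjusted p = 9.7e-05), followed by Acsm3 (-0.88 ± 0.17, adjusted p = 0.0011), Acsm2 (-0.66 ± 0.13, adjusted p = 0.0012) and Acox3 (-0.65 ± 0.13, adjusted p = 0.0018). Acadm, Acat1 and Acsm1 had values of -0.59, -0.56 and -0.56. Acad10, Etfa, Hadh and Echs1 had values between -0.42 and -0.29. For Acox2 the value of -0.45 ± 0.15 (adjusted p = 0.047) lost its call under 19 of 33 alternatives, 16 of which leave out 1 library. These were B-IRI PolgD257A replicates 1, 2 and 4, B-IRI Polg+/+ replicates 1, 3, 4 and 5, sham PolgD257A replicates 1, 2, 4, 5 and 6, and sham Polg+/+ replicates 1, 2, 5 and 6 (adjusted p up to 0.092, without B-IRI Polg+/+ replicate 1). Acads just missed the threshold (-0.23 ± 0.08, adjusted p = 0.0501), and 13 alternatives called it, 8 of which leave out 1 library (B-IRI PolgD257A replicate 2, B-IRI Polg+/+ replicate 2, 4 or 6, sham PolgD257A replicate 1, 3 or 5, or sham Polg+/+ replicate 4). Without B-IRI Polg+/+ replicate 1 the count of interaction calls was 11. The median interaction was -0.25 for mitochondrial and -0.26 for peroxisomal genes, and -0.19 for each without this library.

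In all, the change after B-IRI was more negative in PolgD257A than in Polg+/+ for 33 of the 34 genes, Acadl being the exception (0.02 ± 0.11, adjusted p = 0.93), while the estimate was below 0 for 49.5% of all genes, with a median of 0.00. Of the 34, 20 passed in both injury comparisons, as did 36.3% of all genes. A further 7 (Acox2, Acsl1, Cpt2, Decr2, Eci2, Etfb and Hadhb) passed in PolgD257A and not in Polg+/+, as did 24.2% of all genes, a share close to theirs. Hadha passed in Polg+/+ and not in PolgD257A, as did 4.91% of all genes. Of these 8 the interaction passed for Acox2. Acaa1b, Acadl, Acadvl, Decr1, Ehhadh and Hsd17b4 passed in none of the 5 comparisons.

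**Figure D5:**
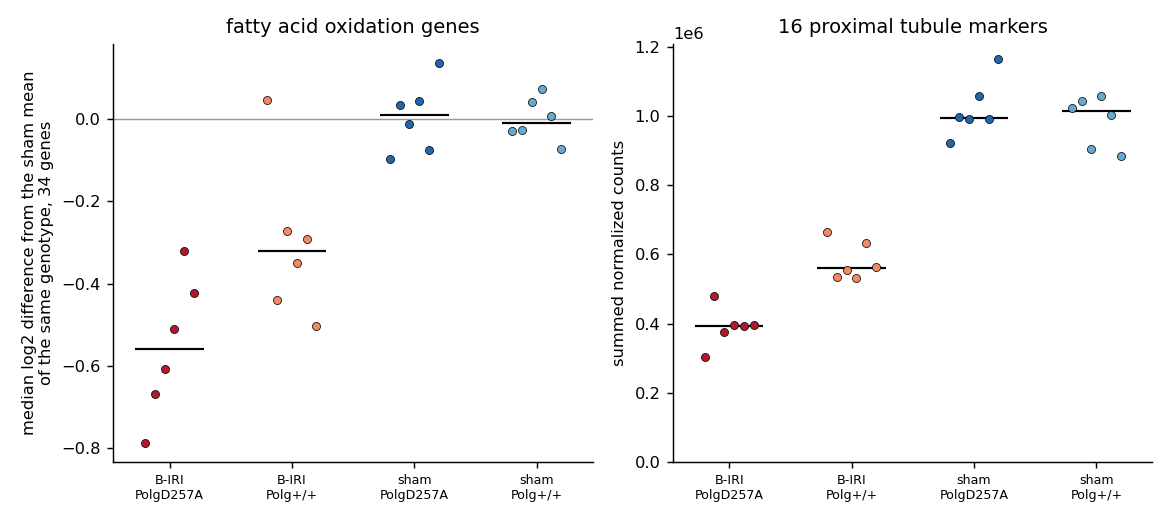
Left, for each library, the median over the 34 genes of the log2 difference from the sham mean of its genotype. Right, the summed normalized counts (linear from 0) of 16 proximal tubule markers. Points are libraries in 4 groups of 6 and lines are medians. On the left B-IRI Polg+/+ replicate 1 lies at 0.04, among the sham libraries, while on the right it lies with its group below all sham libraries.

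Per library, the median log2 difference of the 34 genes from the sham mean of the same genotype was -0.79 to -0.32 in B-IRI PolgD257A and -0.50 to 0.04 in B-IRI Polg+/+ kidneys. The value of 0.04 belongs to B-IRI Polg+/+ replicate 1, and the other 5 lay between -0.50 and -0.27. In B-IRI PolgD257A replicate 1 was the lowest of its group in 26 genes. The median coefficient of variation of the 34 genes was 13.9% in B-IRI PolgD257A and 13.5% in B-IRI Polg+/+ kidneys, against 8.07% in sham PolgD257A and 6.99% in sham Polg+/+ kidneys. Over all genes tested the median was 12.3% in B-IRI PolgD257A and 11.0% in B-IRI Polg+/+ kidneys, against 10.9% in sham PolgD257A and 10.7% in sham Polg+/+ kidneys. The standard errors above pool the spreads within all groups.

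Markers of the proximal tubule moved in the same direction. For the marker counts that follow, 30.3% of all genes fell and 30.2% rose in PolgD257A, and 19.8% fell and 21.4% rose in Polg+/+. Between genotypes after B-IRI 15.2% were lower and 14.3% higher in PolgD257A. All 16 fell in PolgD257A (median log2 change -1.31) and 13 of 16 in Polg+/+ (-0.64), and 13 of 16 were lower in PolgD257A than in Polg+/+ after B-IRI (-0.67). Their summed normalized counts were 303862 to 479978 in B-IRI PolgD257A and 532545 to 665682 in B-IRI Polg+/+ kidneys, against 922044 to 1165971 in sham PolgD257A and 885111 to 1059072 in sham Polg+/+ kidneys, and none of the 16 was at 0. The 6 tubular injury markers rose in both genotypes, with sums of 34146 to 53681 in B-IRI PolgD257A and 7057 to 31159 in B-IRI Polg+/+ kidneys, against 448 to 582 in sham PolgD257A and 372 to 503 in sham Polg+/+ kidneys. Of 5 fibroblast markers 4 rose and 1 fell in each genotype, and 4 were higher in PolgD257A than in Polg+/+ after B-IRI. Of 4 loop of Henle markers 3 fell in PolgD257A, 1 rose and 0 fell in Polg+/+, and 4 of 4 were lower in PolgD257A than in Polg+/+ after B-IRI (median log2 difference -0.71). Their sums were 66238 to 113263 normalized counts in B-IRI PolgD257A and 106490.2 to 129862 in B-IRI Polg+/+ kidneys, against 89915 to 126318 in sham PolgD257A and 96647 to 122643 in sham Polg+/+ kidneys. Of 8 distal tubule and collecting duct markers 5 fell in PolgD257A, 3 fell and 1 rose in Polg+/+, and 6 were lower in PolgD257A than in Polg+/+ after B-IRI (-0.49). Their sums were 26582 to 35159 normalized counts in B-IRI PolgD257A and 37988 to 46433 in B-IRI Polg+/+ kidneys, against 39679 to 47225 in sham PolgD257A and 45234 to 54858 in sham Polg+/+ kidneys. The lower marker levels after B-IRI in PolgD257A were thus not those of the proximal tubule alone, and the further lists differed among themselves. Against Polg+/+ after B-IRI, 3 of 5 endothelial markers were higher and 0 lower (median log2 difference 0.28). Of 5 podocyte markers 1 was higher and 0 lower, and of 7 macrophage and monocyte markers 2 were higher and 1 lower. Of 4 lymphocyte markers tested, all of low counts, 0 were higher and 1 lower (median log2 difference -0.54). Of 4 adipocyte markers tested 0 were called (-0.16). Both neutrophil markers that passed the filter, of 4, rose in each genotype and were higher in PolgD257A than in Polg+/+ after B-IRI, with sums over the 4 of 62.0 to 359 normalized counts in B-IRI PolgD257A and 29.2 to 94.4 in B-IRI Polg+/+ kidneys, against 4.57 to 28.5 in sham PolgD257A and 3.53 to 13.01 in sham Polg+/+ kidneys. The neutrophil marker Ly6g was at 0 in all sham PolgD257A libraries. In whole kidney, fewer cells of a type and less RNA per cell cannot be told apart, and the part of these markers in the falls above was not tested. Acadl, Acadvl, Decr1, Ehhadh, Hsd17b4 and Acaa1b had no call after B-IRI in the main fit, which does not show that they were unchanged. Of these, Acadl, Acadvl and Hsd17b4 were called higher in PolgD257A under some alternatives. Any relation of these genes to the markers was not tested.

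Regulators of the pathway were read from a list of 12 nuclear receptors and coactivators. In PolgD257A 10 fell and 0 rose (median -0.43), and in Polg+/+ 4 fell and 0 rose (-0.11). By interaction 3 passed, all lower. Of all genes 30.3% fell in PolgD257A, 19.8% fell in Polg+/+ and 9.08% passed the interaction as lower. Esrra, the estrogen-related receptor that drives mitochondrial genes, had 2639.8, 3120.04 and 3383 normalized counts in B-IRI PolgD257A and 3804, 4195 and 4467 in B-IRI Polg+/+ kidneys, against 4295, 4594 and 5024 in sham PolgD257A and 3709.9, 4239.9 and 4447 in sham Polg+/+ kidneys (-0.60 ± 0.06, adjusted p = 3.0e-09 in PolgD257A, 0.00 ± 0.06, adjusted p = 0.99 in Polg+/+ and -0.60 ± 0.09, adjusted p = 9.7e-05 for the interaction). B-IRI lay fully below sham in PolgD257A and overlapped it in Polg+/+. Its coactivator Ppargc1a showed the same pattern (-0.54 ± 0.08, adjusted p = 4.9e-06 in PolgD257A, -0.09 ± 0.08, adjusted p = 0.44 in Polg+/+ and -0.45 ± 0.12, adjusted p = 0.012 for the interaction). Hnf4a passed the interaction as well (-0.32 ± 0.11, adjusted p = 0.048). Ppara, the receptor for fatty acids, fell in PolgD257A (-0.57 ± 0.14, adjusted p = 0.0012), had -0.24 ± 0.14 (adjusted p = 0.18) in Polg+/+ and did not pass the interaction (-0.33 ± 0.20, adjusted p = 0.29). Lpin1, a coactivator and lipid phosphatase, fell in both (-1.24 ± 0.13, adjusted p = 7.2e-09 in PolgD257A and -0.79 ± 0.13, adjusted p = 2.6e-05 in Polg+/+).

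Further target genes of PPAR did not share one direction, and neither did genes at large. Of 15 tested in the list, 5 rose and 3 fell in PolgD257A, where 30.2% of all genes rose and 30.3% fell. In Polg+/+ 5 rose and 5 fell, where 21.4% of all genes rose and 19.8% fell. Cyp4a14, a fatty acid hydroxylase, rose by 3.12 ± 0.52 (adjusted p = 1.2e-05) in PolgD257A and 2.74 ± 0.52 (adjusted p = 1.5e-04) in Polg+/+, while its relative Cyp4a32 fell by 2.19 ± 0.22 (adjusted p = 3.0e-09) in PolgD257A and 1.37 ± 0.22 (adjusted p = 1.8e-05) in Polg+/+. Plin2, the coat protein of lipid droplets, had 6357, 14443 and 26428 normalized counts in B-IRI PolgD257A and 3628, 5453 and 6739 in B-IRI Polg+/+ kidneys, against 2237, 2506 and 2914 in sham PolgD257A and 2242, 2358 and 2574 in sham Polg+/+ kidneys. B-IRI lay fully above sham in both genotypes. Its rise was 2.52 ± 0.21 (adjusted p = 9.5e-11) in PolgD257A and 1.12 ± 0.21 (adjusted p = 1.3e-04) in Polg+/+, and larger in PolgD257A by interaction (1.41 ± 0.30, adjusted p = 0.0023). Fabp1, the liver-type fatty acid binding protein, had low counts of 33.7, 47.5 and 70.7 in B-IRI PolgD257A and 19.2, 44.3 and 86.3 in B-IRI Polg+/+ kidneys, against 4.87, 7.3 and 16.9 in sham PolgD257A and 5.85, 10 and 32.9 in sham Polg+/+ kidneys. It rose in both genotypes, with overlap in Polg+/+ (2.42 ± 0.36, adjusted p = 1.9e-06 in PolgD257A and 1.79 ± 0.36, adjusted p = 2.4e-04 in Polg+/+).

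Enzymes that use ketone bodies were also measured. Bdh1, which interconverts the ketone bodies, fell by 1.74 ± 0.12 (adjusted p = 2.0e-12) in PolgD257A and 0.92 ± 0.12 (adjusted p = 7.5e-07) in Polg+/+, and Oxct1, which uses them, by 1.13 ± 0.08 (adjusted p = 5.9e-12) in PolgD257A and 0.59 ± 0.08 (adjusted p = 2.5e-06) in Polg+/+.

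Most other enzymes of the same organelles fell in PolgD257A. Of all genes 30.3% fell in PolgD257A and 19.8% in Polg+/+. Of 13 other mitochondrial acyl-CoA enzymes 11 fell and 2 rose in PolgD257A (median -0.70), and 9 fell and 2 rose in Polg+/+ (-0.33). Ivd, the dehydrogenase of leucine breakdown, fell by 1.36 ± 0.05 (adjusted p = 3.6e-16) in PolgD257A and 0.79 ± 0.05 (adjusted p = 2.3e-11) in Polg+/+, and Pcca, a subunit of propionyl-CoA carboxylase, by 1.03 ± 0.05 (adjusted p = 2.1e-14) in PolgD257A and 0.61 ± 0.05 (adjusted p = 1.9e-09) in Polg+/+. The thioesterases Acot2 and Acot9, which release free fatty acids from coenzyme A, were the 2 that rose (Acot2 0.91 ± 0.16, adjusted p = 1.8e-05 in PolgD257A and 0.61 ± 0.16, adjusted p = 0.0029 in Polg+/+). Of 23 other peroxisomal enzymes and transporters 17 fell and 0 rose in PolgD257A, and 11 fell and 1 rose in Polg+/+. Amacr, the racemase of branched chains, fell by 2.25 ± 0.10 (adjusted p = 2.3e-15) in PolgD257A and 1.28 ± 0.10 (adjusted p = 5.0e-10) in Polg+/+, and Pecr, an enoyl-CoA reductase, by 2.00 ± 0.14 (adjusted p = 2.2e-12) in PolgD257A and 0.92 ± 0.14 (adjusted p = 6.8e-06) in Polg+/+. Of 17 peroxins, the proteins that build peroxisomes, 13 fell and 0 rose in PolgD257A (median -0.32), and 9 fell and 0 rose in Polg+/+ (-0.15).

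Genes of substrate supply moved in both directions, and so did genes at large. Of all genes 30.2% rose and 30.3% fell in PolgD257A, and 21.4% rose and 19.8% fell in Polg+/+. Of 18 genes of uptake, binding and activation 6 rose and 8 fell in PolgD257A, and 5 rose and 6 fell in Polg+/+. Acsl5 and Acsl4, further long-chain synthetases, rose (Acsl5 0.86 ± 0.05, adjusted p = 2.2e-13 in PolgD257A and 0.59 ± 0.05, adjusted p = 1.6e-09 in Polg+/+, and Acsl4 1.13 ± 0.12, adjusted p = 5.8e-09 in PolgD257A and 0.67 ± 0.12, adjusted p = 5.5e-05 in Polg+/+). Slc27a2, a transporter and very-long-chain synthetase of the tubule, fell (-1.33 ± 0.11, adjusted p = 6.4e-11 in PolgD257A and -0.70 ± 0.11, adjusted p = 1.2e-05 in Polg+/+). Of 10 genes of carnitine supply and malonyl-CoA control 6 fell and 0 rose in PolgD257A, and 5 fell and 0 rose in Polg+/+. Slc22a5, the carnitine transporter of the plasma membrane, fell by 0.97 ± 0.10 (adjusted p = 6.4e-09) in PolgD257A and 0.55 ± 0.10 (adjusted p = 1.0e-04) in Polg+/+, and Slc25a20, the carnitine carrier of the inner membrane, had -0.11 ± 0.12 (adjusted p = 0.44) in PolgD257A and 0.11 ± 0.12 (adjusted p = 0.49) in Polg+/+. Of 19 genes of fatty acid synthesis and storage 4 rose and 7 fell in PolgD257A, and 3 rose and 7 fell in Polg+/+, with Fasn, the fatty acid synthase, at 0.02 ± 0.18 (adjusted p = 0.94) in PolgD257A and -0.26 ± 0.18 (adjusted p = 0.27) in Polg+/+.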

How the data were processed

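RNA of 24 mouse kidneys was sequenced. Whether the counting used strand is not stated in the sources used here. Per the labels' protocols, RNA was taken with an RNeasy kit and the library kit was NEBNext Ultra II. The submitters' processing notes name FastQC, STAR, SAMtools, featureCounts, DESeq2 and GRCm38.p6, without versions. The authors deposited a table of normalized counts, a signal scaled by size factors, in which whole reads could be recovered for 100% of values within 0.001. They also deposited a table of shrunken log2 fold changes with s-values (a p-value-like measure of error in sign), quoted only as theirs. Its direction, and the groups behind the abbreviated column names, were inferred from those names.

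Log2(normalized count + 1) was tested with limma 3.58.1 (limma-trend, R 4.3.3) over all 24 libraries and the 17430 genes that reached 10 normalized counts in 6 or more libraries. The test was two-sided, and p-values were adjusted by the Benjamini-Hochberg method over all genes within each of the 5 comparisons, with a threshold of 0.05. Log2 changes are given ± the standard error. They are on the log2(value + pseudocount) scale, which understates the change of low genes. The script was tested on simulated data. Alternatives were pseudocounts of 0.5 and 5, no filter and a filter of 50, TMM scaling, quantile normalization, a replicate block, fits of the libraries compared alone, edgeR 4.0.16 and DESeq2 1.42.0 on the recovered reads, and leaving out each library. With no label saying how animals were paired or processed in batches, no batch was fitted. Counting error is small at these depths, and the error given is the spread between kidneys.

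Gene positions and exon lengths are from GENCODE M21 on GRCm38, and promoters from RefSeq on GRCm38.p6. The members, their roles, the 9 further gene lists and the 11 marker lists were chosen with earlier results of these data known, so none of their counts is independent support. Up to 4 members with the largest called changes per comparison and organelle, and those moving against most, could be given with full values. Cpt1a, Acsl1, Acadl, Etfa, Hadhb, Ehhadh and Acaa1b were also given in full, outside that rule and with their values known. From each further list, the 4 genes of lowest adjusted p, and any that moved opposite to the rest, could be named. Slc25a20, Fasn and Ppara fall outside this rule and were chosen after their values were seen. Of 241 list entries 239 were found. Fabp1 stands in 2 of the lists. Some genes of the ketone body list, and that list's count, are not reported here.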

Additional observations from a re-analysis of the deposited data

Results flagged for a closer look

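Of 136 groups of 6 values, 11 had 1 library far from the other 5, where chance flags about 1 in 20 groups. In 8 of them it was the high B-IRI Polg+/+ replicate 1, with normalized counts of 24083.77 for Acadm, 1795.81 for Acad10, 9027.42 for Decr1, 5306.29 for Etfdh, 18779.21 for Acat1, 9957.27 for Hsd17b4, 9858.85 for Crot and 3279.95 for Eci2. This library also had the lowest sum of tubular injury markers of its group (7057 normalized counts) and the highest sum of proximal tubule markers (665682), and their part in these values was not tested. In sham Polg+/+ replicate 6 Acaa2 was high at 7165.04 and Acox3 low at 4068.9 normalized counts, and in sham Polg+/+ replicate 3 Acaa1b was high at 10133.07.

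The injury response differed between PolgD257A and Polg+/+ by the interaction test for 12 genes, always with a more negative log2 change in PolgD257A. The differences were -1.14 for Eci3, -0.88 for Acsm3, -0.66 for Acsm2, -0.65 for Acox3, -0.59 for Acadm, -0.56 for Acat1, -0.56 for Acsm1, -0.45 for Acox2, -0.42 for Acad10, -0.38 for Etfa, -0.38 for Hadh and -0.29 for Echs1.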

How the results depend on the processing

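Of 78 calls on single genes 71 held and 7 were lost under at least 1 alternative, and none of the 2640 values of these calls changed sign. Of 92 results without a call 17 gained one under at least 1 alternative. The number of genes called higher after B-IRI in PolgD257A, 1, was 2 with TMM scaling, 5 with quantile normalization, 3 with edgeR, 2 with DESeq2 and 1 to 3 when 1 library was left out, with 3 without B-IRI PolgD257A replicate 1, B-IRI PolgD257A replicate 2 or B-IRI Polg+/+ replicate 1 and 2 without B-IRI PolgD257A replicate 3. In Polg+/+ the number, 2, was 4 with quantile normalization, 4 with only the libraries compared and 2 to 4 when 1 library was left out (4 without B-IRI Polg+/+ replicate 6). The median log2 change of the mitochondrial genes in PolgD257A, -0.66, was -0.49 with quantile normalization. The cause was not tested. The counts of genes called lower ranged over all alternatives from 24 to 26 in PolgD257A, 18 to 22 in Polg+/+, 16 to 20 between genotypes after B-IRI and 11 to 16 for the interaction.

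The labels state no pairing by replicate number. Deviations of same-numbered libraries from their group means correlated between -0.33 and 0.17. Other differences between kidneys enter these deviations, so the check cannot show whether samples were paired or shared a batch. With the replicate block 25 genes fell in PolgD257A and 19 in Polg+/+, 17 were lower in PolgD257A after B-IRI, 0 in sham, and 11 passed the interaction. Limits are that bulk RNA gives no cell counts, that overlapping and near-identical genes share reads, and that 6 kidneys a group leave small differences undetected.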
